A study of Rattus norvegicus with 2 samples.

Results

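The genes described here are the chaperones of RBL-2H3 cells and the genes of the stress responses that watch over protein folding. They were taken from the table of all genes as 20 genes listed by name together with every name of the Dnaja, Dnajb, Dnajc, Pdia, Hspa, Hspb, Hspd, Hspe, Hsph, Hsp90 and Cct families, where 20 or more reads were counted over both libraries. Of 94 matching names, 90 passed this minimum, among 12102 genes over it in all. RBL-2H3 is an established line from a rat basophilic leukemia and serves as a model of mast cells and basophils. The data are RNA-seq read counts of poly(A)-selected RNA from 1 untreated library and 1 library of cells incubated with IgE. Both libraries are of wild-type cells, and the labels give no IgE dose, no duration and no statement on an antigen.

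The untreated library held 20917968 counted reads and the IgE library 26268330. With a single library on each side, every difference below is between 2 libraries, has no replicate check and carries no test. Levels are given as CPM (reads of a gene relative to the scaled library total), differences as log2 folds that are positive where the IgE library is higher, and the 95% intervals cover counting error only. All 7 listed markers of basophils and mast cells passed the minimum, with a summed level of 6410 CPM untreated and 6587 CPM with IgE. Of 5 macrophage markers 3 were measured, with a sum of 5.48 and 3.21 CPM, and of 4 neutrophil markers 2 were in the table, Ngp with 26 and 39 reads and Camp with 0 in both, with a sum of 1.24 and 1.49 CPM. Of 5 lymphocyte markers 3 were measured, with a sum of 15.8 and 16.8 CPM, and of 4 fibroblast and epithelial markers 1, the collagen gene Col3a1, at 281.3 and 252.8 CPM. The part of these cells or transcripts in the differences below was not tested, and fewer cells that express a gene cannot be told apart from less RNA per cell.

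Newly made proteins are folded in separate compartments by related machines. Hsp70 proteins bind unfolded stretches with the help of J proteins, Hsp90 proteins act on later intermediates, and the barrel-shaped chaperonins CCT in the cytosol and Hsp60 in mitochondria enclose their clients. Unfolded protein in the cytosol activates the transcription factor Hsf1, while unfolded protein in the endoplasmic reticulum (ER) activates the sensors PERK (Eif2ak3), IRE1 (Ern1) and ATF6, and PERK raises translation of Atf4, a transcription factor for amino acid and redox genes. Mast cells and basophils make large amounts of secreted and granule protein, which is folded in the ER.

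The promoters of these genes carry short motifs by which the responses are told apart. Promoter windows of 300 bases, 250 before and 50 after the gene's start, were found by symbol for 78 of the 94 names in RefSeq sequence of build GRCr8. They were searched on both strands for the heat shock element (GAA, TTC and GAA with 2 bases of any kind between each), bound by Hsf1, for the ER stress response element (CCAAT and CCACG with 9 bases between), bound by ATF6 with NF-Y, and for the C/EBP-ATF response element TGATGNAA, bound by Atf4 with C/EBP partners. The sequences below are the 250 bases before the start of genes that represent each branch, 5′ to 3′ on the gene's strand, with matches in capitals. Hspe1 and Hspd1 encode the mitochondrial Hsp10 and Hsp60 and share a promoter between them, Hspa8 is the constitutive cytosolic Hsp70, Hspa5 (BiP) and Hsp90b1 (Grp94) are the ER Hsp70 and Hsp90, Xbp1 is the transcription factor activated by IRE1, and Chac1 and Trib3 are Atf4 targets.
Hspe1: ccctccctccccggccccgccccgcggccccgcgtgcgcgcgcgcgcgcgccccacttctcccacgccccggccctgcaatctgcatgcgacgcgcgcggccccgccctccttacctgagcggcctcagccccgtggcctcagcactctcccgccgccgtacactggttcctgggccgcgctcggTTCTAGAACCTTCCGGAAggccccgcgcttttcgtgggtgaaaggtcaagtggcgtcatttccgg
Hspa8: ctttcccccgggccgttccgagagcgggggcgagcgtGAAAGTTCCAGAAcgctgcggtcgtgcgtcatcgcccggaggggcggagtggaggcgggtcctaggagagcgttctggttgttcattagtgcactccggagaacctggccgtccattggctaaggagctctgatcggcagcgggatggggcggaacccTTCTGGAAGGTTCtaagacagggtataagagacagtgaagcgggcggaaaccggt
Hspa5: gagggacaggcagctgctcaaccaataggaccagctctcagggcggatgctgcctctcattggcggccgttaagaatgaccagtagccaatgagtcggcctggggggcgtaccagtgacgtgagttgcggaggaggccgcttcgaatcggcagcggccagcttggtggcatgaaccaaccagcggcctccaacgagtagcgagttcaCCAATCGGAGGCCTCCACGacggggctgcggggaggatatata
Hsp90b1: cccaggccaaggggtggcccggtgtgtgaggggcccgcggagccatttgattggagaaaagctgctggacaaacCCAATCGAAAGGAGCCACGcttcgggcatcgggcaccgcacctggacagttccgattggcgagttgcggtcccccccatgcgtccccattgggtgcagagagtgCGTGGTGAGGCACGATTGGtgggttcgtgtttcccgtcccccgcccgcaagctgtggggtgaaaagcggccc
Xbp1: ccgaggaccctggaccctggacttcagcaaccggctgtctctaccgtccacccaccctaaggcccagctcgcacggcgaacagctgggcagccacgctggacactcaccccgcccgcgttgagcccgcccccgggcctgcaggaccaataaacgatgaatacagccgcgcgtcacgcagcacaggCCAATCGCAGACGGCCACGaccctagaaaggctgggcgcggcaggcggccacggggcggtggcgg
Chac1: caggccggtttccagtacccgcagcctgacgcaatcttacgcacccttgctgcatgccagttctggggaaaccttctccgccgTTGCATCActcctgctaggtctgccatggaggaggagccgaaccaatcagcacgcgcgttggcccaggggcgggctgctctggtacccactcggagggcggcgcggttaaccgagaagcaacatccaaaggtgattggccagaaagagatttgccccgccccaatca
Trib3: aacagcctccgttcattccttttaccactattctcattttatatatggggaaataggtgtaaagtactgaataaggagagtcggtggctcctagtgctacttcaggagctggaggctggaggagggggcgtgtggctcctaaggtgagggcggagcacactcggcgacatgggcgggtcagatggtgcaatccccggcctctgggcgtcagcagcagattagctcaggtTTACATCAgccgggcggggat

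In GRCr8 these stretches lie at chr9:64084077-64084326 (plus strand, Hspe1), chr8:50080264-50080513 (plus, Hspa8), chr3:38452766-38453015 (plus, Hspa5), chr7:23012294-23012543 (minus, Hsp90b1), chr14:84604373-84604622 (plus, Xbp1), chr3:126795881-126796130 (plus, Chac1) and chr3:161275534-161275783 (minus, Trib3). The start sites of Hspd1 and Hspe1 are 290 bases apart on opposite strands, and 211 bases of their windows are the same sequence. Both heat shock element matches of the Hspe1 stretch overlap each other, between 65 and 48 bases before the Hspe1 start. The same letters lie between 242 and 225 bases before the Hspd1 start. Hspa8 holds a match 213 and another 55 bases before its start, and Hsp90b1 holds an ER stress response element 176 and another 72 bases before its start. A match is a description of these letters and not of binding.

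In these windows 2 of the motifs were found in members of different compartments. The heat shock element was in 6 of 78 member promoters (7.69%), against 0.798% of all 33469 promoters in the table and 0.468% of those of genes over the minimum of reads. Its genes were Hspa8, Hsph1, Dnaja1, Cct4, Hspd1 and Hspe1, of the cytosol or mitochondria, and Hspd1 and Hspe1 share the same matches. It was in 3 of 21 cytosolic, 1 of 8 CCT and 2 of 7 mitochondrial promoters. It was in 0 of 20 ER promoters, which says little at so low a share over all promoters. The matches of Dnaja1 and Cct4 lay after the start. The ER stress response element was in 7 of 78 (8.97%), against 0.0657% of all promoters and 0.166% of those over the minimum. They were the promoters of the ER chaperones Hspa5, Hsp90b1, Calr and Canx, of the BiP partner Dnajc3, of Creld2 and of Xbp1. The C/EBP-ATF response element was in 6 of 78 (7.69%), against 3.98% of all promoters and 2.09% of those over the minimum, and 2 of 9 Atf4 branch promoters held it, Chac1 and Trib3. Its other genes were Herpud1, Hspa9, Hspa14 and Hspb9. No matches of different motifs overlapped in the members.

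No member was at least 2-fold apart between the libraries, where 2.63% of all genes over the minimum were. At a smaller rule of 1.2-fold, 7 members were higher with IgE (7.78%, against 13.1% of all genes) and 5 were lower (5.56%, against 10.9%), and 78 lay between. With library totals, DESeq2 size factors or a prior of 5 counts the higher ones were 6, without Dnajb9. The higher genes were Dnajc15, Dnajc17, Dnajb7, Hspe1, Dnajc24, Hspb11 and Dnajb9, and the lower ones Hspa12b, Dnajb14, Dnajb5, Dnajc11 and Sesn2. Of these 12 genes, 3 had 2000 or more reads, namely Hspe1, Dnajc11 and Sesn2.

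**Figure D1:**
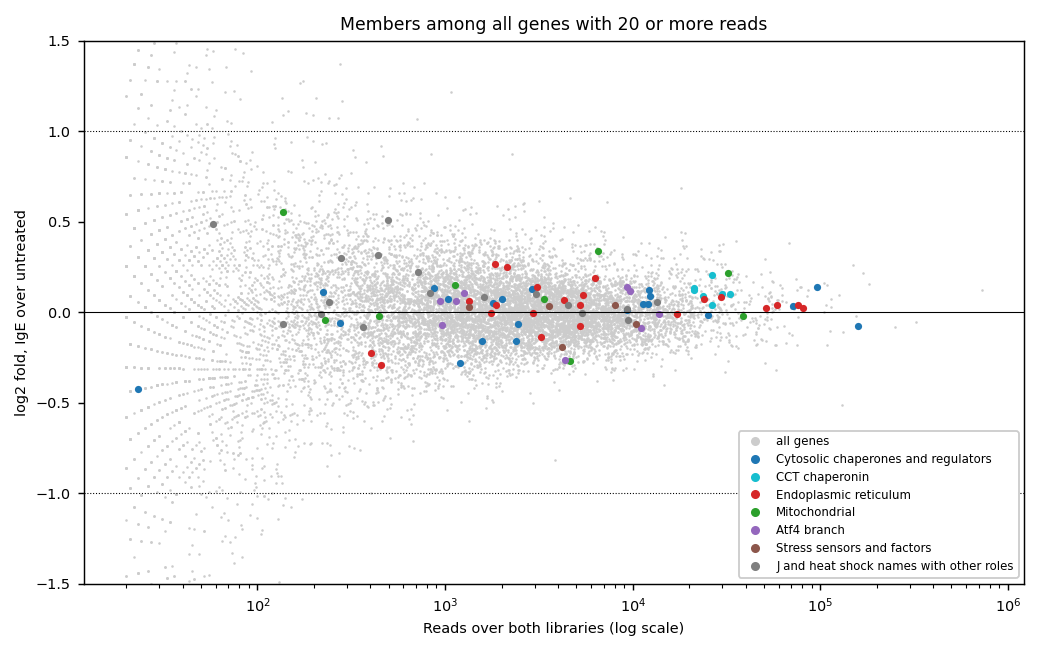
Log2 fold of the IgE over the untreated library against reads over both libraries (log scale), with all genes over the minimum in grey and the 90 members coloured by class; dotted lines mark a 2-fold difference, and genes beyond 1.5 in either direction are not drawn. The members lie inside the dotted lines, and their spread narrows as reads increase.

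Small differences leaned towards the IgE library. Of the 90 members 60 were above 0 and 30 below, and the median log2 fold was 0.05, against 0.00 over all genes, of which 51.1% were above 0. The counting interval lay above 0 for 32 members (35.6%, against 20% of all genes) and below 0 for 11 (12.2%, against 18.6%). The members were counted more deeply than most genes, with a median of 3885 reads against 1402.5. Among genes with 2000 or more reads the interval lay above 0 for 27 of 56 members, against 26.9% of 5079 genes, and below 0 for 8, against 27.4%. This cut did not match depth, as the 56 members had a median of 10030 reads and the 5079 genes 4757. Deeper counts narrow the intervals and the counting part of the spread. The SD of the log2 fold over those 56 members was 0.11, and over the 5079 genes 0.14. At 1.2-fold, 1 of the 56 was higher and 2 were lower, against 4.17% and 1.91% of the 5079. Together the 90 members made up 2.53% of all untreated reads and 2.58% of all IgE reads.

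**Figure D2:**
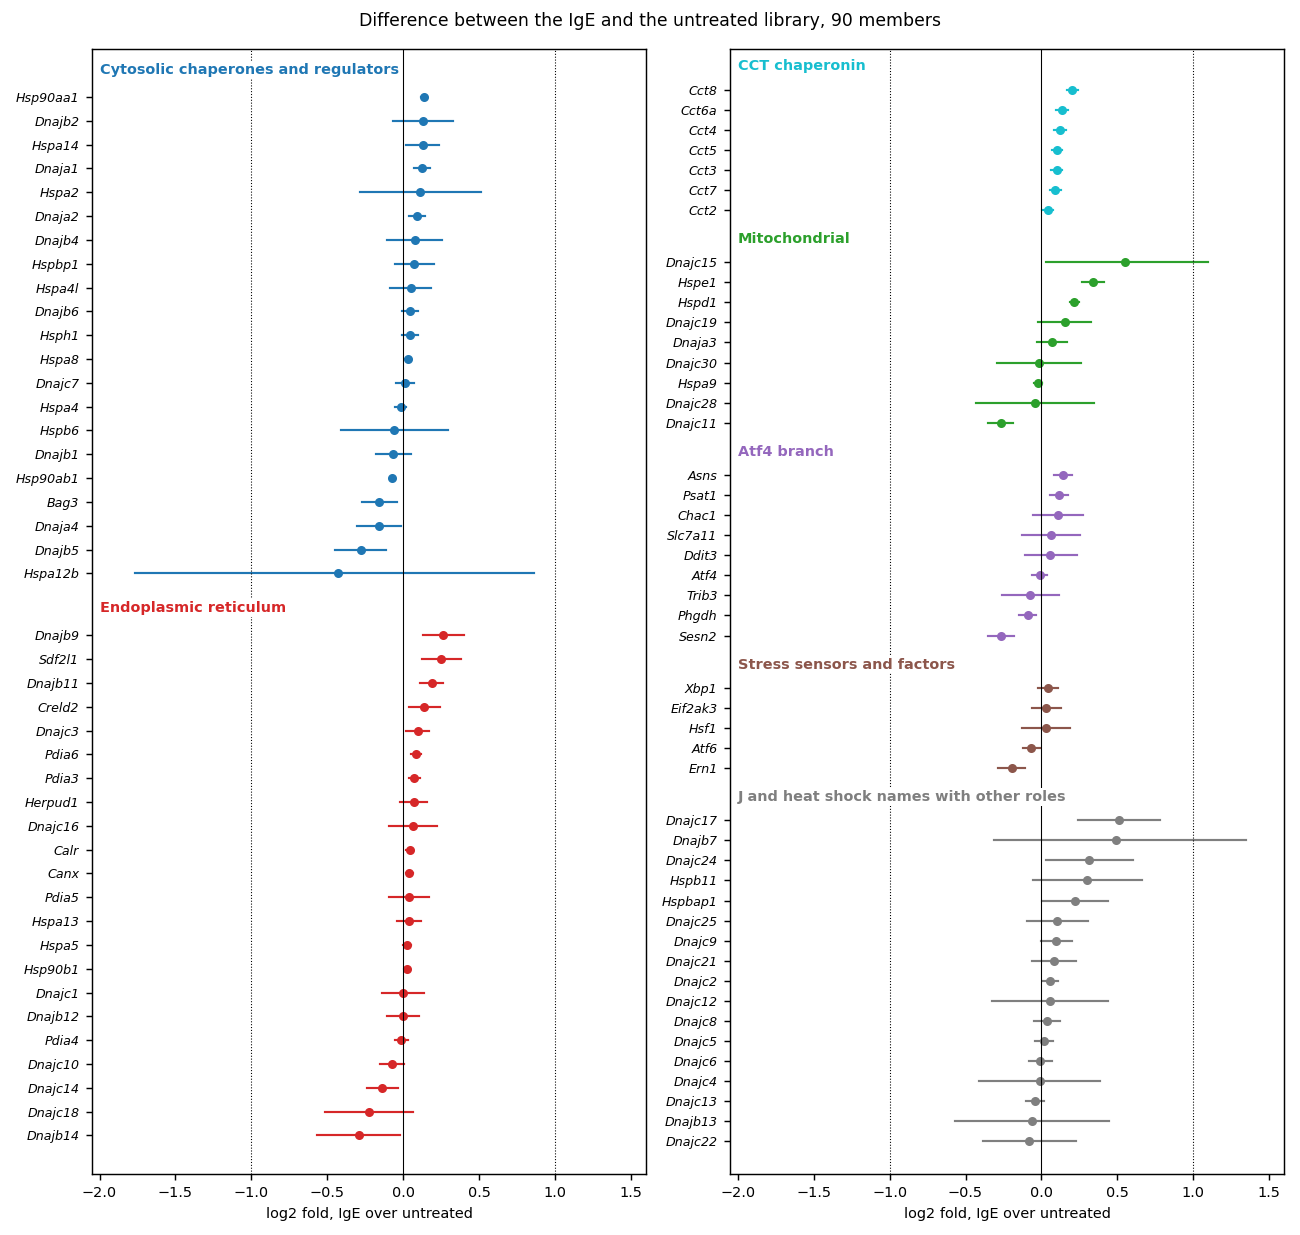
Log2 fold of the IgE over the untreated library for each of the 90 members (points) with the 95% counting interval (lines), grouped by class; dotted lines mark a 2-fold difference in either direction. All 7 CCT subunits lie above 0, and the widest intervals belong to members with few reads such as Hspa12b and Dnajb7.

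The CCT chaperonin, the cytosolic ring that folds actin and tubulin, was higher in every measured subunit. All 7 members, each with 21118 or more reads, had an interval above 0 (with library totals all but Cct2). Among all genes with 2000 or more reads, 26.9% had an interval above 0, but their median was 4757 reads, so their intervals were mostly wider. The log2 folds of the 7 ranged from 0.04 to 0.20, with a median of 0.10. Cct8 went from 518.9 to 597.8 CPM (10889 and 15652 reads), a log2 fold of 0.20 (95% counting interval 0.17 to 0.24). Cct6a went from 428.6 to 470.3 CPM, at 0.13 (0.09 to 0.17), and Cct4 from 426.5 to 464.7 CPM, at 0.12 (0.08 to 0.16). The interval of Cct8 overlapped that of Cct6a and lay above those of the other 5 subunits. Cct5 went from 669.2 to 718.3 CPM (0.10, 0.07 to 0.13), Cct3 from 610.2 to 653.7 CPM (0.10, 0.07 to 0.13) and Cct7 from 484.2 to 515.6 CPM (0.09, 0.05 to 0.13). Cct2 was lowest, from 549.3 to 564.9 CPM (0.04, 0.01 to 0.08). The eighth subunit, Tcp1, which the naming rule does not reach, went from 250.3 to 282.5 CPM (0.17, 0.12 to 0.23). None of these 8 genes was 1.2-fold apart. The class as a whole went from 3687 to 3985 CPM.

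Mitochondrial chaperones were split. The chaperonin pair was higher with IgE. Hspe1, the Hsp10 lid of the chamber, went from 120.6 to 152.3 CPM (2530 and 3988 reads), and its log2 fold of 0.34 (0.26 to 0.41) was the highest among members with 2000 or more reads. Hspd1, the Hsp60 barrel that shares the promoter shown above, went from 625.2 to 726.9 CPM (13119 and 19035 reads), at 0.22 (0.19 to 0.25). Hspa9, the mitochondrial Hsp70 that pulls in and folds imported proteins, was near level, at 831.0 and 818.1 CPM (-0.02, -0.05 to 0.01). Dnajc11, a J protein of the inner membrane organising machinery, was lower, from 108.3 to 89.9 CPM (2273 and 2354 reads), at -0.27 (-0.35 to -0.19).

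The remaining mitochondrial members were less deeply counted. Dnajc15, a J protein of the import motor, had 48 and 88 reads, 2.29 and 3.36 CPM, and the highest log2 fold of all members, 0.55 (0.03 to 1.09). Its paralog Dnajc19 had 476 and 660 reads (0.15, -0.02 to 0.33). Dnaja3, a J protein of Hspa9, was at 69.7 and 73.2 CPM (0.07, -0.03 to 0.17). Dnajc30 (199 and 245 reads) was at -0.02 (-0.30 to 0.26) and Dnajc28 (104 and 126 reads) at -0.04 (-0.43 to 0.35). Of the 9 mitochondrial members 2 were at least 1.2-fold higher (22.2%, against 13.1% of all genes), 1 was lower (11.1%, against 10.9%) and 6 lay between. Their median of 0.07 was 0.03 without Dnajc15. Other transcripts differed by as much in the same direction. The 65 cytosolic ribosomal protein genes had a median log2 fold of 0.29, with 64 above 0, and the 13 protein-coding transcripts of the mitochondrial genome a median of 0.16. Their relation to the values of Hspe1, Hspd1 and the CCT subunits was not tested.

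**Figure D3:**
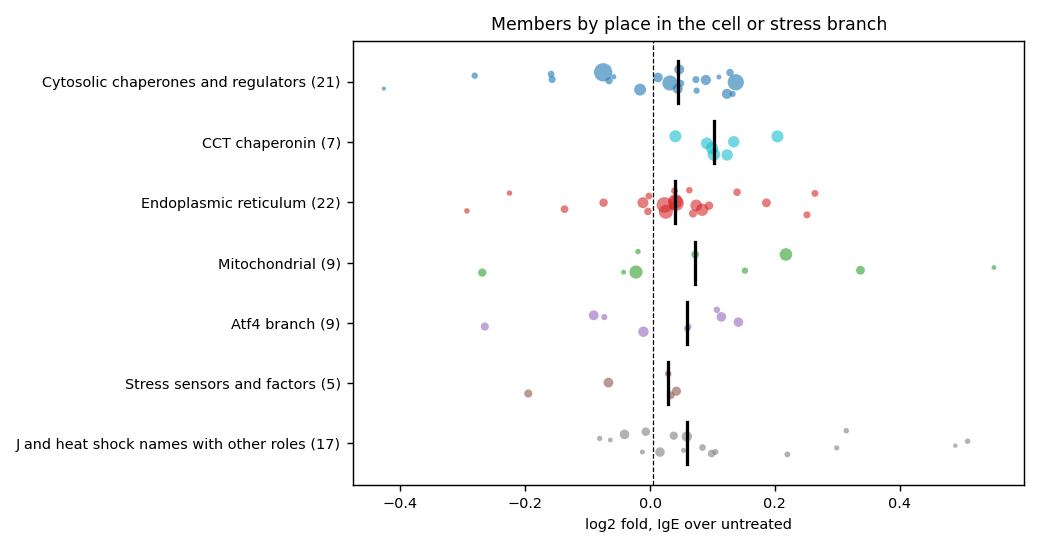
Log2 fold of the IgE over the untreated library by class, with the number of members in brackets; points are genes, larger with more reads, black bars are class medians, height within a class has no meaning, and the dashed line is the median of all genes. The CCT points lie together above 0, while the mitochondrial points spread from -0.27 to 0.55.

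In the ER, the large chaperones were nearly level and some partners of BiP were higher. Hspa5, the ER Hsp70 BiP, stood at 1082 and 1101 CPM (22702 and 28829 reads), a log2 fold of 0.03 (0.00 to 0.05). Hsp90b1 stood at 1691 and 1718 CPM (0.02, 0.00 to 0.04), and with library totals both intervals included 0. The lectin chaperones Calr and Canx, which bind glycoproteins, stood at 1577 and 1623 CPM and at 1226 and 1261 CPM, both at 0.04 (0.02 to 0.06). These 4 genes, of which each promoter held an ER stress response element, differed by at most 0.04 on the log2 scale. Creld2, another ER folding factor with this element, went from 61.9 to 68.1 CPM (1298 and 1784 reads), at 0.14 (0.04 to 0.24).

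The highest log2 folds of the ER class were those of 3 partners of BiP. Dnajb9, a J protein that recruits BiP to IRE1 and to misfolded clients, went from 35.2 to 42.2 CPM (738 and 1106 reads), at 0.26 (0.13 to 0.40). Sdf2l1, a cofactor of BiP and its J proteins, went from 40.8 to 48.6 CPM (857 and 1273 reads), at 0.25 (0.13 to 0.38). Dnajb11, a lumenal J protein, went from 124.0 to 141.2 CPM, at 0.19 (0.11 to 0.26). Dnajc3, also called p58IPK, went from 111.5 to 119.0 CPM (2339 and 3116 reads), at 0.09 (0.02 to 0.17). All 4 intervals lay above 0, as did those of 20% of all genes over the minimum. Dnajb9 alone passed 1.2-fold, a call that was lost with library totals (0.25), DESeq2 size factors (0.26) and a prior of 5 counts (0.26). These 4 were grouped after their values were seen, and other partners of BiP lay lower, namely the J proteins Dnajc10 (-0.07) and Dnajc1 (0.00) and the exchange factor genes Hyou1 (-0.08, -0.12 to -0.05) and Sil1 (0.08, -0.11 to 0.27).

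The disulfide isomerases, which form and rearrange disulfide bonds, had smaller values. Pdia6 went from 603.4 to 639.3 CPM (0.08, 0.05 to 0.12) and Pdia3, which works with Calr and Canx, from 495.9 to 522.0 CPM (0.07, 0.04 to 0.11). The intervals of Pdia5 (0.04) and Pdia4 (-0.01) included 0. Herpud1, which organises ER-associated degradation, was at 88.4 and 92.8 CPM (0.07, -0.02 to 0.16). Hspa13 was at 0.04, and Dnajc10, a disulfide reductase, had an interval from -0.15 to 0.00.

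J proteins held in the ER membrane were level or lower, apart from Dnajc16. Dnajc14 went from 72.1 to 65.6 CPM (1514 and 1718 reads), at -0.14 (-0.24 to -0.04). Dnajb14 had 226 and 230 reads (-0.29, -0.57 to -0.02) and Dnajc18 had 194 and 207 reads (-0.23, -0.52 to 0.06). Dnajb12, the paralog of Dnajb14, was at 0.00 (-0.11 to 0.10) and Dnajc16 at 0.06 (-0.10 to 0.22). With Dnajc1, which also spans the membrane, 5 of 6 were below 0, with a median of -0.07. Of these 5, Dnajb12 and Dnajc1 were level at 0.00, and of the 6 intervals 2 lay below 0 and 4 included 0. Of the other 16 ER members 14 were above 0 (87.5%, against 51.1% of all genes), with a median of 0.06. This division of the class was made after the values were seen.

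Cytosolic chaperones were close to level and mixed in sign, and their Hsp90 paralogs went opposite ways. Hsp90aa1, the stress-inducible cytosolic Hsp90, went from 1940 to 2134 CPM (40706 and 55866 reads), at 0.14 (0.12 to 0.16). Hsp90ab1, the constitutive paralog, went from 3443 to 3269 CPM (72255 and 85587 reads), at -0.08 (-0.09 to -0.06). Both intervals exclude 0 on opposite sides, at sizes well under 1.2-fold. The sum over the 21 measured cytosolic members was 8954 CPM untreated and 9051 CPM with IgE.

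The Hsp70 machinery of the cytosol differed little. Hspa8 stood at 1490 and 1523 CPM (0.03, 0.01 to 0.05). Its nucleotide exchange factors of the Hsp110 family were at 0.04 for Hsph1, -0.02 for Hspa4 and 0.05 for Hspa4l, each with an interval that included 0. Hspa14, a ribosome-associated Hsp70, was at 58.6 and 64.0 CPM (0.13, 0.02 to 0.24). The general J proteins Dnaja1 (245.5 and 267.3 CPM) and Dnaja2 (253.6 and 269.8 CPM) were at 0.12 (0.07 to 0.18) and 0.09 (0.04 to 0.14). Dnajb2 had 367 and 502 reads (0.13, -0.06 to 0.33). Hspa2, Dnajb4, Dnajb6, Dnajc7 and the exchange factor gene Hspbp1 were at 0.11, 0.07, 0.05, 0.01 and 0.07, all with intervals that included 0.

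Other cytosolic cochaperones were lower or level. Dnajb1, the class B J protein of the heat shock response, stood at 53.3 and 50.9 CPM (1118 and 1333 reads), at -0.07 (-0.18 to 0.05). Bag3, an Hsp70 cochaperone that steers clients to autophagy, went from 54.0 to 48.4 CPM (1133 and 1268 reads), at -0.16 (-0.27 to -0.04). Dnaja4 had 747 and 835 reads (-0.16, -0.30 to -0.01) and Dnajb5 had 596 and 612 reads (-0.28, -0.45 to -0.12). Hsf1 itself was at 28.3 and 28.8 CPM (593 and 755 reads), at 0.03 (-0.13 to 0.19). The inducible Hsp70 genes Hspa1a and Hspa1b were not analysed here. Small heat shock proteins were scarce, with Hspb6 at 126 and 151 reads (-0.06, -0.41 to 0.29) and 0 reads for Hspb1 in both libraries, which allows a level of up to 0.143 and 0.115 CPM (3 reads).

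The minimum of 20 reads separated a few weakly counted names. Just inside it were Hspa12b, a distant Hsp70 relative, with 12 and 11 reads (-0.43, -1.77 to 0.86), and Dnajb7, with 21 and 37 reads (0.49, -0.31 to 1.34). Just outside were Hspb9 with 4 and 14 reads, Hspb7 with 8 and 8, and Cct6b with 4 and 6. All these intervals are wide.

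The Atf4 branch showed no common direction. Atf4 stood at 292.4 and 290.2 CPM (6135 and 7599 reads), a log2 fold of -0.01 (-0.06 to 0.04), and its translation is not seen in these data. Ddit3, the transcription factor CHOP, was at 23.6 and 24.6 CPM (496 and 645 reads), at 0.06 (-0.11 to 0.23). Chac1, which degrades glutathione, had 535 and 719 reads (0.11, -0.06 to 0.27). Trib3, a pseudokinase that CHOP and Atf4 induce, had 441 and 523 reads (-0.07, -0.26 to 0.11). All 4 intervals included 0. Slc7a11, the cystine transporter, was likewise at 19.4 and 20.2 CPM (0.06, -0.13 to 0.25).

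Enzymes of amino acid synthesis in this branch lay on both sides of 0. Asns, asparagine synthetase, went from 186.5 to 205.7 CPM (3913 and 5386 reads), at 0.14 (0.08 to 0.20). Psat1, the second enzyme of serine synthesis, went from 196.7 to 212.9 CPM (4127 and 5574 reads), at 0.11 (0.06 to 0.17). Phgdh, the enzyme before it in the same pathway, went from 241.7 to 227.0 CPM (5071 and 5944 reads), at -0.09 (-0.14 to -0.04). Sesn2, a stress-induced inhibitor of mTORC1, went from 101.3 to 84.3 CPM (2126 and 2208 reads) and was the lowest of the branch, at -0.26 (-0.35 to -0.18). Of the 9 genes 2 had an interval above 0 (22.2%, against 20% of all genes) and 2 below (22.2%, against 18.6%). The other 5 intervals included 0, and the median of the 9 was 0.06. These shares are near those over all genes.

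Among the sensors, IRE1 was lower. Ern1, which encodes IRE1, went from 95.4 to 83.3 CPM (2001 and 2181 reads), at -0.20 (-0.28 to -0.11). Atf6 went from 225.3 to 215.1 CPM (4727 and 5632 reads), at -0.07 (-0.12 to -0.01). Eif2ak3, which encodes PERK, was at 75.1 and 76.8 CPM (1576 and 2012 reads), at 0.03 (-0.06 to 0.13). Xbp1, whose mRNA IRE1 splices, was at 168.2 and 173.2 CPM (3529 and 4534 reads), at 0.04 (-0.02 to 0.11). The count per gene does not separate spliced from unspliced Xbp1.

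The other 17 J protein and heat shock names have roles outside general folding. Dnajc17, a splicing-related J protein, had 179 and 318 reads, 8.53 and 12.1 CPM, and a log2 fold of 0.51 (0.24 to 0.78). Dnajc24, which takes part in diphthamide synthesis on elongation factor 2, had 172 and 267 reads (0.31, 0.03 to 0.60). Hspb11, a protein of intraflagellar transport, had 110 and 169 reads (0.30, -0.05 to 0.66), and Hspbap1 had 291 and 423 reads (0.22, 0.00 to 0.44). These 4 and Dnajb7 held the highest values of the group, and each had fewer than 2000 reads, a range in which 37% of all genes were at least 1.2-fold apart.

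Better counted members of that group were near level. Dnajc2, a J protein at the ribosome, was at 277.9 and 289.4 CPM (0.06, 0.01 to 0.11). Dnajc5, the cysteine string protein of regulated exocytosis, was at 195.4 and 197.6 CPM (0.02, -0.04 to 0.08). Dnajc6, which uncoats clathrin vesicles, was at 114.7 and 114.1 CPM (-0.01, -0.08 to 0.07). Dnajc13, of endosomes, was at 203.2 and 197.6 CPM (-0.04, -0.10 to 0.02), and Dnajc8, of splicing, at 0.04. Dnajc9, a histone chaperone, was at 62.1 and 66.5 CPM (0.10, -0.01 to 0.20). Dnajb13 (62 and 74 reads, -0.06, -0.57 to 0.45) and Dnajc22 (167 and 197 reads, -0.08, -0.39 to 0.23) were the lowest. Dnajc25, Dnajc21, Dnajc12 and Dnajc4, with 217 to 1605 reads, lay between -0.01 and 0.10 with intervals that included 0.

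Members grouped by motif lay in a smaller range than other genes with the same motifs, but the groups differ in number and in reads. Some of the widest values of the other genes came from weakly counted ones. Among them were Phf11b (-2.34, 22 reads), Hist1h2bq (1.35, 26 reads) and Vom1r75 (0.47, 22 reads). The 6 members with a heat shock element had log2 folds from 0.03 to 0.34 with a median of 0.12, and the 32 other genes with one ranged from -0.34 to 0.47 with a median of 0.00, 18 above 0 and 14 below. The 7 members with an ER stress response element lay between 0.02 and 0.14 with a median of 0.04, and the 8 other genes with one ranged from -0.11 to 0.24 with a median of 0.10. The 5 measured members with a C/EBP-ATF response element had a median of 0.07, and the 170 other genes with one ranged from -2.34 to 1.35 with a median of 0.00. Other genes here are non-members, and some belong to the pathway lists below. Examples are Ero1b (0.23) and Derl3 (0.24) for the ER stress response element, Chordc1 (0.09) for the heat shock element and Mars1 (-0.12) for the C/EBP-ATF response element. Over the 8560 genes with a promoter and over the minimum of reads the median was 0.00. Some symbols had more than 1 window, 9613 in all for these genes. The folds by motif used only the last window of a symbol, so a match in another window was not counted. The shares given earlier are per window.

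**Figure D4:**
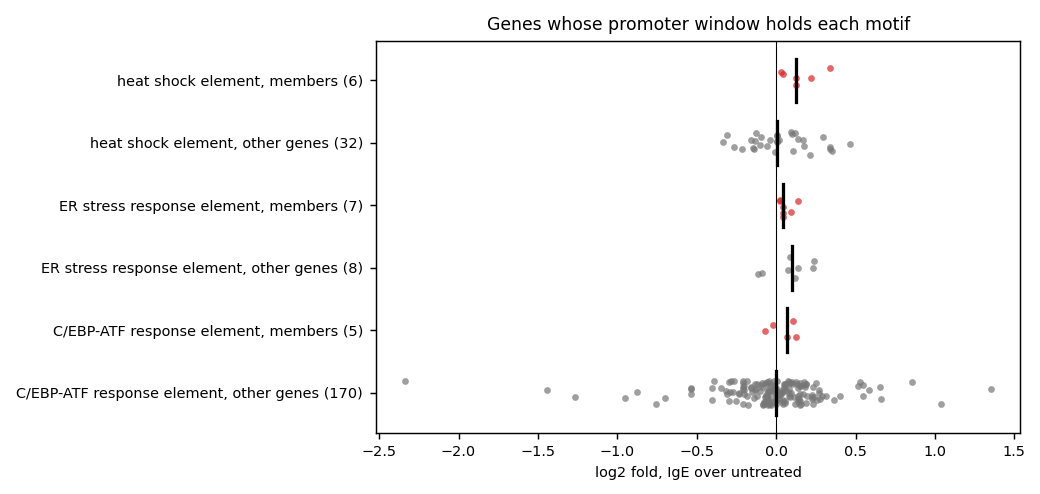
Log2 fold of the IgE over the untreated library for genes whose promoter window holds each motif, with members in red and other genes in grey, the number of genes in brackets and black bars at the medians. Members with an ER stress response element lie between 0.02 and 0.14, and those with a heat shock element between 0.03 and 0.34.

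Other genes of the same pathways, 83 measured, had a median of 0.00, with 8 at least 1.2-fold higher (9.64%, against 13.1% of all genes), 1 lower (1.2%, against 10.9%) and 74 between. Of 24 genes of ER folding and ER-associated degradation, 2 were at least 1.2-fold higher (8.33%, against 13.1% of all genes). They were the cyclophilin gene Ppib (142.0 and 178.5 CPM, 0.33, 0.26 to 0.40) and Manf (0.29, -0.78 to 1.43). The ER Hsp70 relative Hyou1 (492.5 and 464.4 CPM) was at -0.08, and the lectin gene Os9 (350.9 and 308.7 CPM) at -0.19. None of 24 amino acid response genes was 1.2-fold apart, from Sars1 (-0.16) to Pycr1 (0.13). Among these listed genes, the aminoacyl-tRNA synthetase genes, many of which Atf4 controls, ranged from Sars1 to Gars (0.06, 0.02 to 0.09).

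Of 21 cochaperone and prefoldin genes 5 were at least 1.2-fold higher (23.8%, against 13.1% of all genes) and 1 lower (4.76%, against 10.9%). The higher ones were the prefoldin genes Pfdn6 (0.69, 0.10 to 1.33), Pfdn1 (0.36) and Pfdn5 (0.27), and the Hsp90 cochaperone genes Ppid (42.3 and 57.4 CPM, 0.44, 0.32 to 0.56) and Ptges3 (538.3 and 647.6 CPM, 0.27, 0.23 to 0.30). Stub1, the ubiquitin ligase CHIP of Hsp70 and Hsp90, was lower, from 33.7 to 26.5 CPM (-0.35, -0.50 to -0.19). Smaller values with an interval below 0 were those of Bag6 (-0.17), Cdc37 (-0.15) and Stip1 (-0.06). Of 14 genes of mitochondrial quality control, 10 were below 0, with a median of -0.06 (28.6% above 0, against 51.1% of all genes). The interval lay below 0 for 2 of the 14 (14.3%, against 18.6% of all genes) and above 0 for 3 (21.4%, against 20%). These interval shares are near those over all genes. Grpel1, a nucleotide exchange factor of Hspa9, was the highest, from 32.8 to 41.4 CPM (0.33, 0.20 to 0.47). Its paralog Grpel2 was the lowest, at -0.13 (-0.27 to 0.00), and the protease Lonp1 was at -0.11 (-0.16 to -0.06).

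In the authors' deposited table, 89 of the 90 members had an adjusted p of 1. In the authors' deposited table, the remaining one, Dnajc17, had an unadjusted p of 0.0434 and an adjusted p of 0.949. With 1 library per group these values have no replicate spread behind them. Many members have processed copies elsewhere in the genome, which makes their counts uncertain where reads could be shared. RefSeq names 33 pseudogenes of Hspa8, 23 of Hsp90ab1, 20 of Hspd1, 16 of Hsp90aa1 and 14 of Cct6a, and at least 1 for 26 of the 94 names.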

How the data were processed

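RNA-seq of RBL-2H3 cells was analysed, with 1 untreated library and 1 from IgE-treated cells, grouped by the treatment label. The authors deposited raw counts for each gene name, per the file headers. Beside them stand the authors' deposited log2 fold change and their p-value, also adjusted. Tools named in the submitters' processing notes are HISAT2 2.1.0, fastp 0.23.0 and DESeq2 1.18.1, with build rn6. How reads were counted, with which strand setting and what treatment of multiply mapped reads, is not given in the sources used here, and reads from overlapping or antisense genes cannot be told apart. The files hold no coordinates. Of 16990 rows, 2077 repeated another row exactly, which left 14913 names.

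Log2 CPM were computed with edgeR 4.0.16 (R 4.3.3), TMM scaling and a prior count of 0.5, for genes with 20 or more reads. Clopper-Pearson 95% intervals of the read ratio cover counting error only. A rule of 2-fold, and of 1.2-fold for small differences, replaced a test. The calculation was tested on simulated data drawn with counting error only. That checks the arithmetic and says nothing about how far cultures differ. The members, the lists and the rules were chosen with earlier results of these data known. Values were given for the 20 genes listed by name, for the main Hsp genes, and for the 3 highest and 3 lowest of each class. Others were added after their values were seen. Classes follow the place in the cell or the branch known for each gene. Planned levels per coding length and C-terminal signals were not run. Promoters are from RefSeq (GRCr8). Alternatives were library totals, DESeq2 1.42.0 size factors, a prior of 5, either no minimum or 100 reads, 1.5-fold as the rule, and medians without the farthest member.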

Additional observations from a re-analysis of the deposited data

How the results depend on the processing

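All 159 alternative folds of named genes stayed within their counting intervals. All 48 alternative list medians lay between the median lower end and the median upper end of the listed genes' intervals. That band has the width of a typical single gene's interval and is not an interval of the median, so it is a weak check. The sign differed only for the median of the other pathway genes, at -0.0063 with library totals. The mitochondrial median was 0.03 without Dnajc15. Scalings moved the median of all genes by at most 0.01 (to -0.0042 with library totals). With no minimum, 1 member, Hspb9, was at least 2-fold apart, in place of 0, and with the 1.5-fold rule none was. Against 161 higher and 157 lower genes over all, there were 104 and 99 with a prior of 5, 855 and 875 with no minimum, 21 and 15 with 100 reads as the minimum, and 443 and 427 by the 1.5-fold rule. The prior and the minimum act on weakly counted genes by construction, and the 1.5-fold rule lowers the threshold for every gene. The interval above 0 was lost with library totals for Hsp90b1, Hspa5, Hspbap1 and Cct2, and with DESeq2 size factors for Hspa5 and Hspbap1, which left 28 and 30 members in place of 32. With library totals the intervals of Hspa9 (-0.061 to -0.003) and Dnajc10 (-0.163 to -0.004) came to lie below 0. This gave 13 members below 0 in place of 11. Counting error is wide for members with few reads, and no replicate shows how far cultures differ. No paired analysis was possible because there is 1 library on each side, which also keeps either library from being left out.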
